A study of Mus musculus with 2 samples.

Results

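Interferon-induced genes were examined in RNA of cortical thymic epithelial cells (cTECs), the cells that line the outer thymus and test newly made thymocytes. The set was a list of 37 genes known as targets of interferon signalling, matched by symbol to probe sets that the platform annotation ties to a single gene, and for each gene the probe set with the highest mean over both arrays was taken. In this way 33 of the 37 were measured, out of 19938 genes on the array. The study placed Aire, the regulator with which medullary epithelial cells transcribe genes of peripheral tissues, under the promoter of the thymoproteasome gene for β5t (Psmb11) in a semi-knockin NOD strain. One array per genotype was hybridised: Tg, cTECs labelled as coming from 7 Aire transgenic mice, and non-Tg, cTECs from 5 control mice, both on the NOD background at day 7. These counts were read as animals pooled for an array. The isolation of the cells, and whether the Psmb11 copy that received Aire was still intact, are not stated in the labels. The transgene is driven by a promoter of cTECs, whereas the arrays measured all RNA of the isolated cells.

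Interferons act in a short relay. Type I interferons bind the receptor of Ifnar1 and Ifnar2, and interferon gamma that of Ifngr1 and Ifngr2; receptor-bound JAK kinases then phosphorylate STAT proteins. STAT2 and IRF9 belong to ISGF3, a complex that binds interferon-stimulated response elements (ISRE) of antiviral genes, whereas the interferon gamma signal acts at gamma-activated sites (GAS) of genes such as Irf1. In the thymus, medullary epithelial cells are known to make type I interferon without infection. The members were therefore kept in 2 classes: 26 genes best known as type I induced, and 11 guanylate-binding and IRF1-type genes, with the CXCR3 ligands among the latter. Cxcl10 and Cxcl11 respond to both kinds of interferon.

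The text gives the deposited log2 values as levels. Ratios are log2 differences, Tg minus non-Tg, after levels under 4.80, the 25th percentile of all values, were raised to that floor. Levels of different probe sets depend on their probes. An order by mean level was used to choose probe sets and genes to name, not to compare abundance between genes. Sums of levels over a marker list are governed by its brightest probe sets. A gene passed the filter when its value reached the array's median (5.43 in Tg, 5.45 in non-Tg) on at least 1 array. Each genotype had a single array, so the ratios carry no replicate error and no p-value. The only spread at hand was an SD of 0.302 per probe set, taken from pairs of probe sets of 658 genes, and it holds no variation between animals or amplifications. Aire, the gene the strain was built to express, had 7.33 in Tg and 6.06 in non-Tg, a ratio of 1.28, in the direction the labels give. Markers of cTECs were present: 12 of 12 measured cortical genes passed the filter, as most medullary and thymocyte markers did too, with Ccl25 at 12.64 in Tg and 12.58 in non-Tg and Krt8 at 12.62 and 12.57.

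Interferon-induced genes were well detected in both genotypes, and few of them separated Tg from non-Tg. On both arrays, 30 of the 33 measured members reached the array median, against 50.8% of all genes, and 19 reached the upper quartile (6.57 in Tg, 6.55 in non-Tg), against 23.6%. No member was 2-fold apart in either direction, where 1.17% of the 11422 genes past the filter were (0.797% higher, 0.376% lower). The members 1.5-fold apart or more were Gbp7 and Dhx58, both higher in Tg, which is 2 of the 32 members that passed the filter against 4.74% of genes higher and 7.86% either way; the members' share is thus close to the background. Ratios lay within 0.3 of 0 for 25 of the 33 members, and for 70.0% of genes past the filter.

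**Figure D1:**
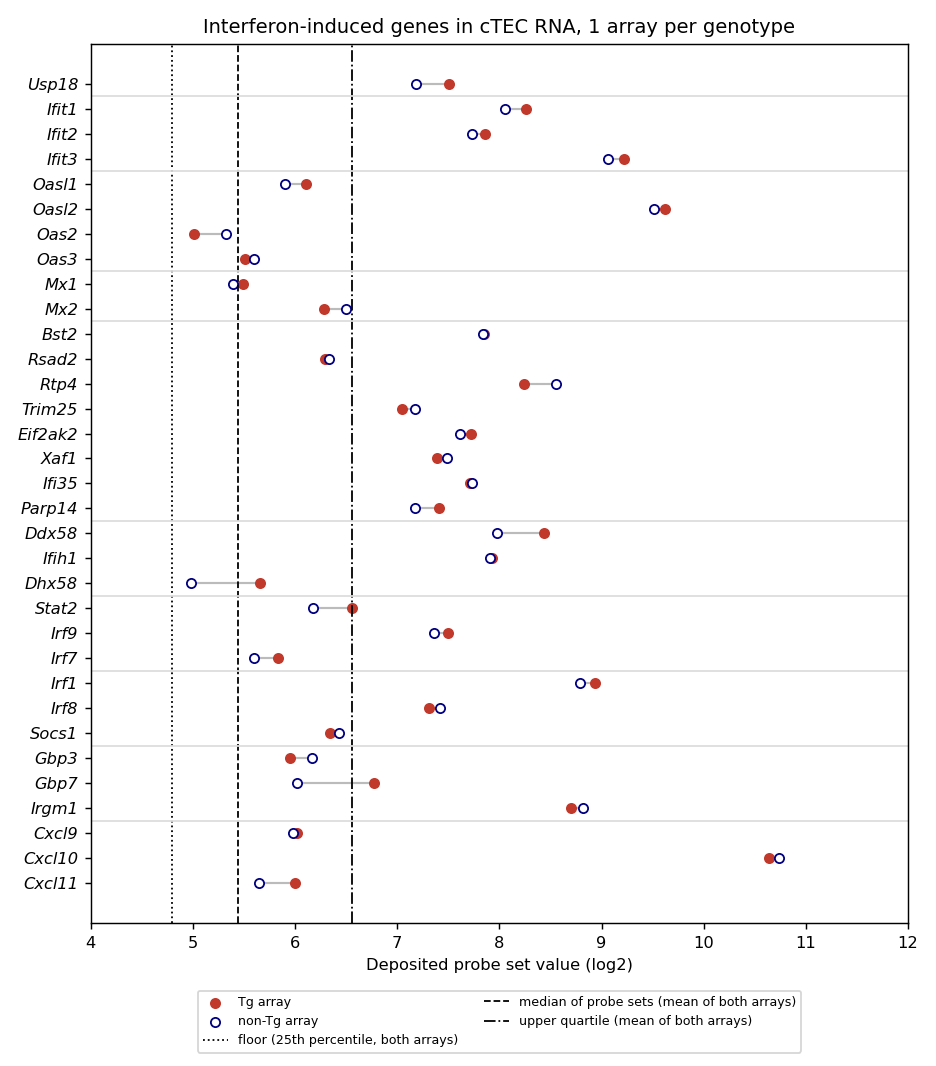
Deposited log2 value of each of the 33 measured members on the Tg array (filled) and the non-Tg array (open), in order of role, with the floor, median and upper quartile of all probe sets as vertical lines. The 2 points of a row can be compared; rows cannot, since probe sets differ in brightness. Gbp7, Dhx58 and Ddx58 have the widest gaps, and Oas2 is the member under the median on both arrays.

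Markers of other cells were also detected on both arrays, and whether members' signal came from cTECs or from these cells was not tested. Of 12 measured thymocyte markers 11 passed the filter, with Rag1 at 10.89 in Tg and 10.96 in non-Tg and Cd3g at 9.94 and 10.23, and the log2 sum of their levels was 12.4 and 12.5 in the same order. Macrophage and dendritic cell markers had 4 of 16 past the filter (log2 sum 9.61 and 9.44), led by Sirpa at 7.82 and 7.13 and Tyrobp at 6.08 and 6.66, while Itgam, Itgax and Clec9a fell short of the floor in each genotype. Markers of plasmacytoid dendritic cells, a known source of type I interferon, had 6 of 9 past the filter (9.65 and 9.66), led by Tcf4 at 7.82 and 7.62 and Ccr9 at 7.53 and 7.55 and including the member Irf8, but the defining gene Siglech stayed below it, at 4.94 and 4.86. B cell markers had 2 of 7 past it (7.86 and 7.95; Ebf1 5.57 and 5.93, Pax5 5.53 and 5.57), natural killer and gamma delta T cell markers 3 of 8 (8.96 and 8.94; Gzma 8.00 and 8.07, Prf1 5.59 and 5.72, and in the other direction Gzmb 5.94 and 4.98, a ratio of 0.96), fibroblast markers 6 of 8 (10.3 and 10.5; Thy1, also a thymocyte gene, 8.89 and 9.57, Postn 8.09 and 7.59), endothelial markers 7 of 8 (9.52 and 9.51; Cdh5 7.87 and 8.02, Pecam1 7.30 and 6.82) and erythroid markers 2 of 4 (7.27 and 7.33; Epor 5.51 and 5.62, Slc4a1 5.49 and 5.62). Medullary markers had 10 of 11 past it (11.6 and 11.4), with Krt5 at 10.73 and 10.39 and Trp63 at 9.13 and 9.25; Aire is on that list, and Cd86 on it had 5.55 and 4.83 (0.72). Gzmb and Cd86 passed the filter through the Tg array alone, so the filter set the direction of their ratios. In bulk RNA of this kind, fewer cells of a type and less RNA per cell cannot be told apart.

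Among the type I induced genes, 24 of 26 were measured, and 23 passed the filter. Their median log2 ratio was 0.11, beside 0.01 over all genes past the filter, and 16 ratios lay above 0 and 8 below. Bright genes as a whole leaned the same way. At the upper quartile on at least 1 array, 55.8% of 5625 genes had a ratio above 0 (median 0.04). So did 13 of 20 members at that level (median 0.11). Gbp7 reached that level through the Tg array alone (6.77 in Tg, 6.02 in non-Tg), so its ratio had to be above 0. Over both classes 20 of 33 ratios were above 0, against 50.6% of genes past the filter. Over all 19938 genes the share was 39.0%, where 17.3% were under the floor on both arrays and so had no ratio above 0. Bst2 and Ifih1, close to 0 as deposited, fell just below it under quantile or loess scaling, which left 18 above 0. Cortical markers lay on the same side of 0: all 12 measured had ratios above 0, with a median of 0.13, the widest being Ackr4 at 7.35 in Tg and 6.78 in non-Tg (0.57), Enpep at 8.51 and 8.03 (0.48) and Psmb11, whose promoter drives the transgene, at 10.51 and 10.15 (0.37). Thymocyte markers had 9 of 12 ratios below 0 and a median of -0.05. The part of these cells in the members' ratios was not tested.

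The cytosolic RNA sensors, helicases that recognise viral RNA and start interferon production, held the widest ratio of this class. Ddx58, which encodes RIG-I, had 8.44 in Tg and 7.98 in non-Tg, a ratio of 0.46 (1.38-fold) that 8.17% of genes past the filter reached or exceeded. Dhx58, which encodes the regulatory helicase LGP2, had 5.65 and 4.98, a ratio of 0.67 (1.59-fold; 3.27% of genes). Dhx58 passed the filter through the Tg array alone, so it had to be higher there, and its ratio was 0.21 when the floor was set at the median of all values. Ifih1, which encodes MDA5, had nearly equal values of 7.93 and 7.91. The sensors thus did not share a single ratio: Ddx58 was separated by more than the probe set SD, Dhx58 sat near background, and Ifih1 was level.

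The factors that carry the type I signal to DNA all had the higher value in Tg. Stat2, the STAT specific to this pathway, had 6.56 in Tg and 6.17 in non-Tg (ratio 0.39, 1.31-fold). Irf9, the DNA-binding partner in ISGF3, had 7.50 and 7.36 (0.14). For Irf7, which amplifies interferon alpha production, the values were 5.83 and 5.60 (0.23). Of these only Stat2 exceeded the probe set SD, and 11.1% of genes past the filter had a ratio at least as high.

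In the ISG15 system, a ubiquitin-like modifier and its protease, Usp18 was measured. This protease, which also dampens the type I receptor, had 7.51 in Tg and 7.18 in non-Tg (0.33, 1.26-fold). Isg15 itself had no probe set of its own; a probe set annotated to Isg15 and Gm9706 read 8.05 and 7.96 and is not counted as Isg15. The Ifit genes encode proteins that bind foreign RNA ends, and all 3 lay slightly higher in Tg. Ifit1 had 8.26 and 8.05 (0.21), Ifit2 7.86 and 7.73 (0.12), and Ifit3 9.22 and 9.06 (0.16). These genes lie side by side on chromosome 19, and their ratios spanned less than the probe set SD.

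The 2′-5′-oligoadenylate synthetase family, whose enzymes activate RNase L, was split. The 2 synthetase-like members were higher in Tg, Oasl1 at 6.10 against 5.90 (0.20) and Oasl2 at 9.62 against 9.51 (0.11). Oas3 was lower, at 5.51 against 5.60 (-0.09). Oas2, at 5.01 in Tg and 5.32 in non-Tg (-0.31), was the member that did not pass the filter, and its ratio became 0 with the floor at the median. The Mx genes, of a family of GTPases that trap viral nucleocapsids, were split as well. RefSeq annotates both as transcribed pseudogenes on the C57BL/6J reference, which is not the NOD genome. Whether their RNA encodes a working protein here was not tested. Mx1 had 5.49 and 5.40 (0.09) and passed through the Tg array alone, and Mx2 had 6.29 and 6.50 (-0.21).

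The remaining type I effectors had 8 measured genes, 3 with ratios above 0 and 5 below, and a median of -0.03. The lowest was Rtp4, a chaperone of membrane receptors strongly induced by interferon, at 8.24 in Tg and 8.55 in non-Tg (-0.31, 1.24-fold lower). Trim25, the ubiquitin ligase that activates RIG-I, had 7.05 and 7.18 (-0.13). Eif2ak2, which encodes the RNA-activated kinase PKR, had 7.72 and 7.61 (0.11). Parp14, an ADP-ribosyltransferase, had the group's highest ratio, 0.24, from 7.41 and 7.17.

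The other 4 differed by at most 0.10. Bst2, which encodes tetherin, had 7.85 and 7.84. Rsad2, which encodes viperin, had 6.29 and 6.33, Xaf1, a pro-apoptotic gene, 7.39 and 7.48, and Ifi35 7.71 and 7.73. Ifi44 was not measured here. Apart from Rsad2, the measured genes of this group reached the upper quartile on both arrays, where values were far from the floor.

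**Figure D2:**
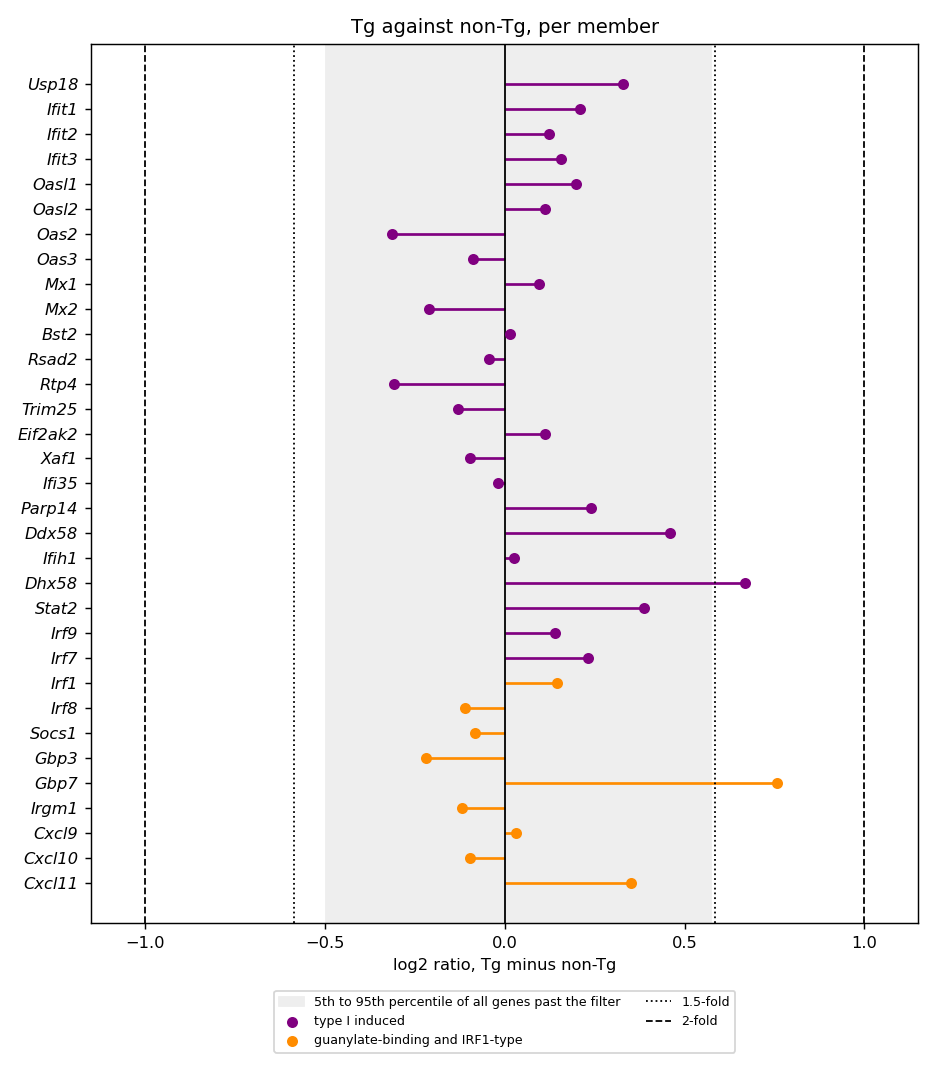
Log2 ratio, Tg minus non-Tg, of the 33 measured members by class, with 1 array per genotype and therefore no error bars. The grey band spans the 5th to 95th percentile of ratios of all genes past the filter, -0.50 to 0.57, and dotted and dashed lines mark 1.5-fold and 2-fold. Gbp7 and Dhx58 lie outside the band and the other 31 members inside it.

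In the guanylate-binding and IRF1-type class, 9 of 11 genes were measured and all 9 passed the filter. The median ratio was -0.08, with 4 ratios above 0 and 5 below. The difference between this median and that of the type I class was not tested. The widest ratio of all members was here: Gbp7, a GTPase of antimicrobial defence, had 6.77 in Tg and 6.02 in non-Tg (0.76, 1.69-fold; 2.16% of genes). Under the alternative scalings its ratio stayed between 0.74 and 0.76, and the other alternative settings could not change it. Gbp3, which lies close to Gbp7 on chromosome 3, had 5.95 and 6.17 (-0.22). Guanylate-binding proteins are close paralogs, and what their probe sets share was not tested. Irgm1, an immunity-related GTPase that controls autophagy of pathogens, had 8.70 and 8.82 (-0.12). Probe sets annotated to pairs of genes gave 7.79 and 7.66 for Gbp2 with Gbp2b, and 9.18 and 9.32 for Irgm2 with Igtp, so that Gbp2 and Igtp have no value of their own.

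The regulators of this class differed by at most 0.14. Irf1, the transcription factor through which interferon gamma induces antigen presentation genes, had 8.93 in Tg and 8.79 in non-Tg (0.14). Its second probe set read 7.67 and 7.33 (0.34), so the probe sets agreed in direction and differed in size. Irf8, a factor of myeloid and plasmacytoid dendritic cells and B cells, had 7.31 and 7.42 (-0.11). Socs1, the feedback inhibitor of JAK kinases, had 6.34 and 6.42 (-0.08). Irf8 is itself on the plasmacytoid dendritic cell marker list given above; the part of such cells in its signal was not tested.

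The CXCR3 ligands draw activated T cells and natural killer cells to tissue. Cxcl10 was at 10.64 in Tg and 10.74 in non-Tg (-0.10), in the upper quartile of both arrays. Cxcl9, the ligand most dependent on interferon gamma, had 6.01 and 5.98 (0.03), and Cxcl11 had 6.00 and 5.65 (0.35, 1.27-fold). RefSeq annotates Cxcl11 as a transcribed pseudogene on the C57BL/6J reference, so its RNA need not stand for a working ligand. Whether this holds in NOD mice was not tested. The 3 genes are neighbours on chromosome 5. Counting Cxcl10 and Cxcl11 with the type I induced genes left the class medians at 0.11 and -0.08.

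Promoter letters were examined because the members were listed for their response to interferon and not for sequence. Windows of 300 bases, 250 before and 50 after an annotated start, came from RefSeq on GRCm38.p6, the C57BL/6J reference and not the NOD genome, and were held for 29 of the 37 genes. ISRE was searched as GAAA, any 2 bases and GAAA, on both strands. GAS was searched as TTC, any 3 bases and GAA, which reads the same on both. ISRE letters stood in a window of 17 of the 29 members, 58.6%, against 3.99% of 27025 genes with a window; GAS letters stood in 8, 27.6%, against 9.55%. Of the type I induced genes 10 of 19 held ISRE letters and 4 held GAS letters, and of the guanylate-binding and IRF1-type genes 7 of 10 and 4. Among 42 other interferon-induced genes from a second list, 20 held ISRE letters. Of 25 ISRE matches in the members, 22 began before the start and 14 of those within 100 bases of it, and 1 overlapped a GAS match. A match is a description of letters, not evidence of binding.

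The 250 bases before the start are shown for Gbp7 and Gbp3, the highest and lowest ratios of their class, for Isg15 and Socs1, the first listed gene of each class with ISRE letters, and for Ifit2 and Irf1, the first with GAS letters. Dhx58 and Rtp4, at the ends of the type I class, had no window. Gbp3, Ifit2 and Irf1 each had 2 windows, and the window shown was picked for holding the most matches. Of the members' 34 windows, 21 were set on the start that RefSeq gives for the gene as a whole. Capitals mark ISRE or GAS matches, and overlapping matches run together.
Gbp7, chr3:142530086-142530335, plus strand: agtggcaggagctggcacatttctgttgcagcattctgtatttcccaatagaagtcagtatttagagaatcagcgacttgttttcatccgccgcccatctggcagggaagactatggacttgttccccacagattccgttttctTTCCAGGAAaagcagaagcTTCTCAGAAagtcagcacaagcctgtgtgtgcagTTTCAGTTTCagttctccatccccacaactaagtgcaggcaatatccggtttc
Gbp3, chr3:142559794-142560043, plus strand: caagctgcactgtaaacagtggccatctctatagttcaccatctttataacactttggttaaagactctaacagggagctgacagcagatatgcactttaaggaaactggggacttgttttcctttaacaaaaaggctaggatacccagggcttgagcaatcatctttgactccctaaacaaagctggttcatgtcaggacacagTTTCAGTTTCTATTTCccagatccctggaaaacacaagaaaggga
Isg15, chr4:156200819-156201068, minus strand: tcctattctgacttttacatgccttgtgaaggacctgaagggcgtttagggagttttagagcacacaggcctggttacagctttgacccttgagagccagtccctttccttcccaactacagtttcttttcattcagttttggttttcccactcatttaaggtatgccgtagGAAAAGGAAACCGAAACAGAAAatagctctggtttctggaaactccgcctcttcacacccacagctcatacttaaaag
Socs1, chr16:10785537-10785786, minus strand: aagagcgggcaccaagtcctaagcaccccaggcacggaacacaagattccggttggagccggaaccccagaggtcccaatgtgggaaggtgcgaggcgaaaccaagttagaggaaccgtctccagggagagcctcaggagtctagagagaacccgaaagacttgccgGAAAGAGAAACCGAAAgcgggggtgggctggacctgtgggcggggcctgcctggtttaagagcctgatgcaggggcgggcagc
Ifit2, chr19:34550444-34550693, plus strand: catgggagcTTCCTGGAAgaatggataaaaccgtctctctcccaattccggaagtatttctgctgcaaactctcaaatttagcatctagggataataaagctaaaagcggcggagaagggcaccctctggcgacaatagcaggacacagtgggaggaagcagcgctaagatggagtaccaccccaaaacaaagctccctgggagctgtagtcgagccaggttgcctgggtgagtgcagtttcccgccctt
Irf1, chr11:53769764-53770013, plus strand: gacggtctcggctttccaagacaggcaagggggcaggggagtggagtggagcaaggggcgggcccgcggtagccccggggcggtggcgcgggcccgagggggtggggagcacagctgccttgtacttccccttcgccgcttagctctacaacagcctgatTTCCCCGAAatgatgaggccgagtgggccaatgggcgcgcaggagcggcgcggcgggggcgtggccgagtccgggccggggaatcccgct
Gbp7 held ISRE letters beginning 53 bases before the start and GAS letters at 106 and 87, and Gbp3 held ISRE letters at 45 and 39 and no GAS letters, while their ratios were 0.76 and -0.22. Irf1 held GAS letters 90 bases before the start. In Isg15 the run of capitals joins 3 ISRE matches.

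Ratios of members with and without ISRE letters overlapped. The 14 measured members with such letters had a median ratio of 0.02 (range -0.22 to 0.76), and the 11 with a window and no such letters had 0.11 (range -0.13 to 0.23). Within the type I induced genes the medians were 0.11 for 9 genes with and 0.12 for 8 genes without. Within the guanylate-binding and IRF1-type genes they were -0.10 for 5 genes with, 1 of them above 0, and 0.03 for 3 genes without, 2 of them above 0. The differences were not tested.

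**Figure D3:**
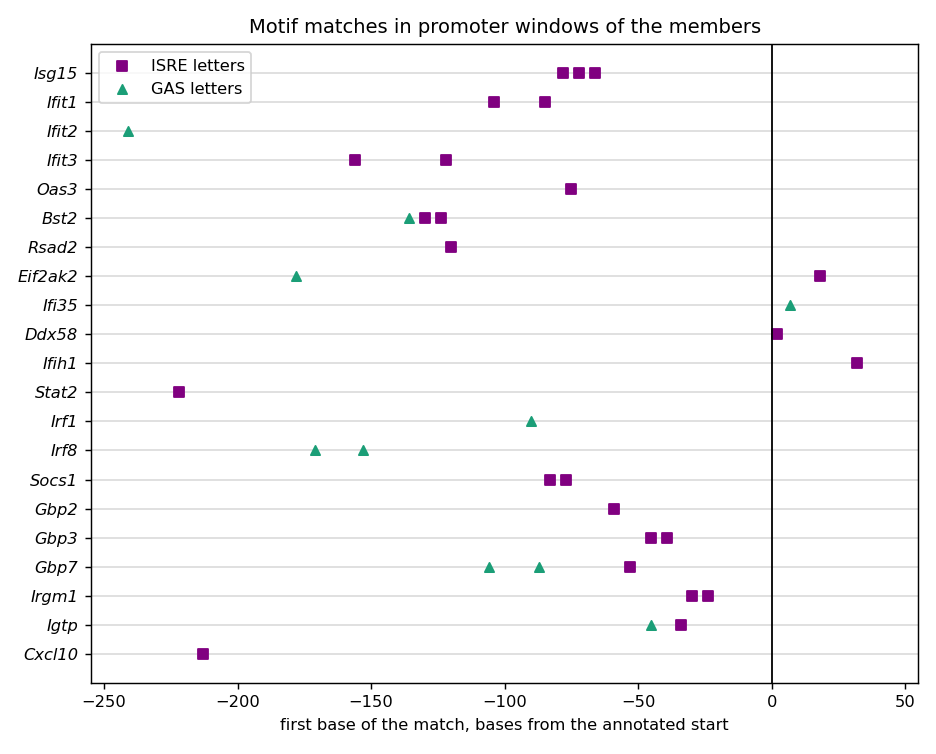
Position of ISRE letters (squares) and GAS letters (triangles) in the promoter windows of the 21 members that held at least 1 match, as the distance in bases from the annotated start to the match's first base in the gene's direction. Of 25 ISRE matches, 14 lie within the 100 bases before the start.

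Upstream of the members, the interferons themselves were mostly dim. Of 16 measured ligand genes 4 passed the filter, and 6 were below the floor in both genotypes. Ifnb1 had 4.54 in Tg and 4.66 in non-Tg, both under the floor, and Ifng 4.85 and 4.77. The 4 with the highest mean were Ifnl2 at 6.86 and 6.95, Ifna5 at 6.43 and 6.49, Ifnz at 6.15 and 5.78 (0.37) and Ifna9 at 5.61 and 5.54. Interferon alpha genes are near-identical copies, so single values are uncertain. None of the 4 ligand genes past the filter was 1.5-fold apart, against 7.86% of all genes past it, and 4 are too few to compare. Genes under the floor on both arrays have a ratio of 0 by construction. Receptors were well detected: 5 of 6 passed the filter. The exception was Ifnlr1, the specific receptor chain for interferon lambda, at 5.22 and 5.20.

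The receptor of interferon gamma held the list's widest ratio. Ifngr1, its ligand-binding chain, had 8.63 in Tg and 9.37 in non-Tg, a ratio of -0.74 (1.67-fold lower), and 1.39% of genes past the filter were as low. It was the 1 receptor gene of the 5 past the filter that was 1.5-fold lower, against 3.13% of genes. The signalling chain Ifngr2 had the opposite sign, at 7.93 and 7.65 (0.28). For type I interferon, Ifnar2 had 7.91 and 7.80 (0.10) and Ifnar1 6.68 and 6.64 (0.04). Il10rb, shared with interferon lambda, had 7.33 and 7.58 (-0.26). Thymocytes also express Ifngr1. Their 12 measured markers had a median ratio of -0.05, with 9 below 0 and 3 above. The lowest was Cd3d at -0.49 and the highest Themis at 0.21. The part of thymocytes in the Ifngr1 value was not tested.

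Of 10 measured JAK-STAT genes 9 passed the filter. Of the 10 ratios 7 lay above 0, against 50.6% of genes past the filter and 39.0% of all genes. Their median was 0.15. The kinase genes Jak1 and Jak2 had 9.92 and 9.71 (0.20) and 8.90 and 8.65 (0.25), and Stat3 8.51 and 8.24 (0.27). Ptpn11, which encodes the phosphatase SHP2, had 8.11 and 7.51 (0.60, 1.52-fold), and 4.25% of genes were as high; under other settings its ratio was as low as 0.56, short of 1.5-fold. Of 19 genes of nucleic acid sensing 13 passed the filter and none was 1.5-fold apart, against 7.86% of genes, with ratios from -0.47 to 0.46. Those with the highest means were Samhd1, a nucleotide hydrolase that restricts viruses, at 8.60 and 8.29 (0.31), the kinase gene Tbk1 at 7.09 and 7.37 (-0.27), the sensor gene Zbp1 at 7.18 and 7.25, and the RNA editing gene Adar at 6.81 and 6.76.

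A second list of interferon-induced genes outside the members had 46 measured genes, of which 37 passed the filter. Over the 46, ratios lay above 0 for 31 and below 0 for 13, and the median was 0.08. Ratios above 0 were held by 50.6% of genes past the filter and 39.0% of all genes. Of the 37, 1 gene was 1.5-fold higher, against 4.74% of genes, and 0 were 1.5-fold lower, against 3.13%. That gene was Rnf213, a giant ubiquitin ligase, at 7.81 in Tg and 6.84 in non-Tg (0.97, 1.96-fold), but its second probe set read 6.31 and 6.44 (-0.12). The genes of the list with the highest means differed little, with the higher value in Tg. Ifitm3, which blocks viral entry, had 12.39 and 12.25, and Isg20, an exonuclease gene, 10.44 and 10.40. The galectin gene Lgals9 had 10.06 and 10.01, and Ifi27l2a 9.89 and 9.73.

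Antigen presentation genes that IRF1 or CIITA drive had 13 of 13 past the filter, 9 ratios above 0 (50.6% over all genes past the filter) and a median of 0.12. The peptide transporter gene Tap1 was the 1 gene of 13 that was 1.5-fold apart, where 7.86% of genes were, at 7.17 and 6.33 (0.84, 1.79-fold), while its partner Tap2 had 6.59 and 6.46 (0.12). The immunoproteasome gene Psmb9 had 11.12 and 10.88 (0.23), Psmb10 8.78 and 8.85, B2m 12.05 and 12.04, and the invariant chain gene Cd74 10.20 and 10.19. Over all measured genes, medians of the pathway lists outside the members lay between 0 and 0.15. Over genes past the filter alone, the median was -0.07 for nucleic acid sensing and 0.20 for JAK-STAT signalling. Single genes stood apart from their partners: Ifngr1 from Ifngr2, and Tap1 from Tap2.

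**Figure D4:**
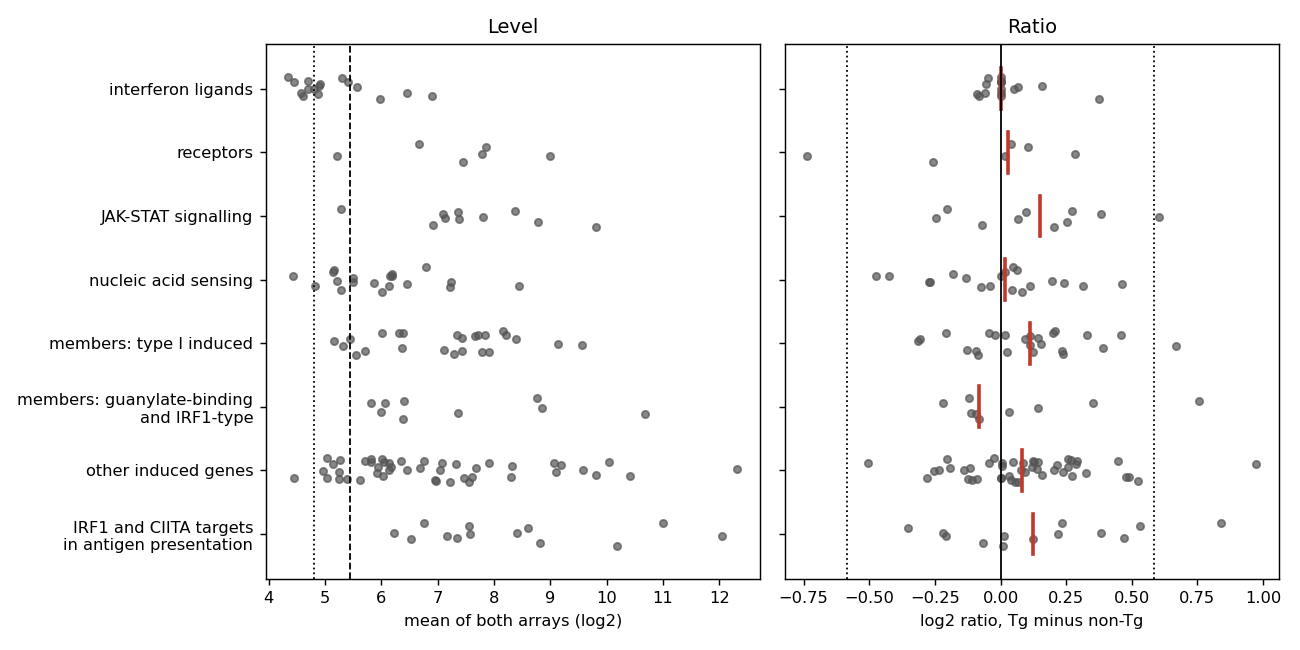
Left, mean log2 level over both arrays of each measured gene by list, with the floor (dotted) and median (dashed) of all probe sets, where levels of different probe sets are not ranked. Right, log2 ratio, Tg minus non-Tg, with list medians as red bars and 1.5-fold as dotted lines. Most ligand genes sit near the floor, and the points beyond 1.5-fold are Ifngr1, Ptpn11, Dhx58, Gbp7, Rnf213 and Tap1.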

How the data were processed

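RNA of 1 Tg and 1 non-Tg cTEC sample was measured on Affymetrix arrays. Per the labels' protocols, 400 pg of total RNA was amplified to cDNA and 5.5 µg of cDNA was biotin-labelled. The deposited values, 1 per probe set for 28856 probe sets, were taken as log2 from their range, 4.22 to 13.7. The authors' background correction, normalization and software, and the build, are named in no label or header. Array medians were 5.43 and 5.45. Precision is limited by the 2 arrays.

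Gene names came from GEO's platform annotation: 21789 probe sets had 1 symbol, 1621 several and 5446 none. Values under the 25th percentile were raised to it, and the filter was the 50th percentile. Fold thresholds of 2 and 1.5 replaced a test. All members were to be named, with the 4 highest-mean genes of each pathway list, those 1.5-fold apart, and the 2 highest-mean markers. Ifnb1, Ifng, the remaining receptors and partner genes, and markers under the floor were named after their values were seen. So were Gzmb, Cd86, the cortical markers Ackr4, Enpep and Psmb11, and the thymocyte markers Cd3d and Themis. Members and lists were chosen with earlier results of these data known. Alternatives covered the floor, filter, scaling and probe set choice. Python 3.11.15 with pandas 2.3.3 was used. The code for ratios was run on simulated data with planted changes above 2-fold in bright genes. No member was that far apart, so this run says nothing about ratios of the size reported.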

Additional observations from a re-analysis of the deposited data

How the results depend on the processing

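Across 10 alternative settings, no member was 2-fold apart in either direction and none was 1.5-fold lower. The median ratio stayed between 0.08 and 0.11 for the type I induced genes and between -0.10 and -0.08 for the guanylate-binding and IRF1-type genes, alternatives on class membership and on members past the filter included. The count of members at least 1.5-fold higher was 1 in place of 2 with a floor at the 50th percentile. It was also 1 with a filter at the 75th percentile and with a filter on the mean of both arrays. Under each of these Gbp7 remained and Dhx58 was lost. Gbp7 passed the 75th percentile filter through the Tg array alone (6.77 in Tg, 6.02 in non-Tg), so it had to be higher there. With the 75th percentile filter, 20 members passed in place of 32. Of 330 member ratios recomputed, 2 moved by more than the probe set SD, those of Oas2 (to 0) and Dhx58 (to 0.21), both under the higher floor. Most of the 330 could not move, so this count is no measure of stability. Filters leave ratios unchanged, no measured member lay under the main floor, and of the members only Irf1 had a second probe set. Scaling moved no member's ratio by more than 0.06 and the median of all genes by at most 0.01. Aire kept a ratio between 1.25 and 1.28. No paired analysis was possible because each group has 1 array.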

Other observations

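By gene order in the RefSeq table, 15 of the 37 genes stand within 5 genes of another member, in 6 groups. Besides the Ifit genes on chromosome 19 and the CXCR3 ligands on chromosome 5, these are Mx1 and Mx2 on chromosome 16 (ratios 0.09 and -0.21), Oasl1 and Oasl2 (0.20 and 0.11) and Oas2 and Oas3 (-0.31 and -0.09), both pairs on chromosome 5, and Gbp2, Gbp3 and Gbp7 on chromosome 3. Among the other guanylate-binding genes with a probe set of their own, Gbp9 had a ratio of 0.48 (7.85 in Tg, 7.37 in non-Tg), Gbp5 0.33 (6.09 and 5.76), Gbp4 0.04 (6.97 and 6.93) and Gbp8 -0.28 (7.32 and 7.60), and Gbp11 did not pass the filter (5.29 and 5.00). Values of single genes in this family thus spread from -0.28 to 0.76, and these were chosen after their values were seen.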
